A study of Mus musculus with 105 samples.

Results

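Non-tumour liver of mice that lack β-catenin was set directly against non-tumour liver of mice that lack the receptor cMet. The compared libraries were those labelled BKO and MKO in sequencing group 2, taken at 1, 3 and 5 months and, at 8 months, from liver outside the tumours. This gave 24 of the 105 libraries of the series, 12 of each genotype with n = 3 per genotype and stage, and the membership followed the labels alone. All these animals had received diethylnitrosamine (DEN), a carcinogen that the liver's own cytochromes activate. The wild-type (WT) libraries of the same sequencing group, 12 from the same 4 non-tumour stages and also DEN-treated, show which of the knockouts lay away from the wild type.

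The labels name the genotypes beta catenin KO and cMet KO, and the study's title places the losses in hepatocytes. They give neither the Cre driver nor the sex, and they number the replicates without saying that each came from its own animal. The p-values therefore measure the spread between these libraries. The Y-linked gene Ddx3y was detected in all 24 libraries, at 96.0 to 246 normalised reads. Whole liver was sequenced, so fewer cells of a type and less RNA per cell cannot be told apart.

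β-Catenin works at the membrane and in the nucleus of a hepatocyte. It joins E-cadherin to the cytoskeleton, and it works with TCF/LEF factors on WNT target genes. WNT ligands and R-spondin 3 from the endothelium of the central vein keep the nuclear function high in the hepatocytes nearest the vein. These pericentral cells make glutamine and carry most of the drug-metabolising cytochromes, while periportal hepatocytes make urea, glucose and much of the secreted protein. MET is the receptor tyrosine kinase for hepatocyte growth factor (HGF), and it is known for its part in liver regeneration and hepatocyte survival.

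Between 6650086 and 15553993 reads per library fell on the 12966 listed genes, with a median of 11899932 in BKO and 11353439 in MKO. Levels below are normalised reads recovered from the deposited values. Differences are BKO minus MKO on the deposited log2 scale, ± SE, as the mean of the 4 differences within a stage. That scale compresses low values, so it understates the change of genes with few reads. A gene was called at a limma adjusted p (Benjamini-Hochberg over all 12966 genes) below 0.05, and "higher", "lower", "rose" and "fell" are used of called genes. Some libraries stood apart. MKO replicates 2 and 3 at 1 month and replicate 2 at 8 months did so in summed female-biased genes. Those genes depend on growth hormone. BKO replicates 1 and 3 at 5 months had the highest BKO sums of WNT feedback genes, 1367 and 1718 against 273.2 to 1125. That sum mostly follows Ccnd1, with a BKO mean of 523.5 normalised reads against 29.1 for Tbx3 and 8.6 for Lgr5. Replicates 1 and 3 also held more of the pericentral genes Cyp2e1 and Lect2 than replicate 2. Their summed pericentral genes, 38600 and 46200, lay inside the BKO range of 22390 to 57340. BKO replicate 1 at 8 months stood apart in neutrophil genes. The 3 MKO libraries and the BKO pair at 5 months are called the set-apart MKO and BKO libraries below. Both sets were chosen after the values were seen. Calls and counts that moved without them are given beside the results they touch.

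Neither targeted gene was called between the knockouts. Ctnnb1 (chromosome 9, 120933400 to 120960507, GRCm38), which encodes β-catenin, had 101, 118 and 159 normalised reads in the lowest, median and highest BKO library. The same values were 80.0, 103 and 129 in MKO and 92.4, 122 and 147 in WT. BKO minus MKO for Ctnnb1 was 0.15 ± 0.07 (adjusted p = 0.16; 95% interval 0.00 to 0.29 before adjustment), and no loss of Ctnnb1 RNA was seen in BKO.

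Met (chromosome 6, 17463349 to 17573980) had 154, 223 and 280 normalised reads in the lowest, median and highest BKO library, 147, 182 and 259 in MKO and 188, 250 and 273 in WT. BKO minus MKO for Met was 0.18 ± 0.07 (adjusted p = 0.0846; 95% interval 0.04 to 0.33 before adjustment), with all groups overlapping. Against WT, Met fell by 0.31 in MKO (adjusted p = 0.0118). Met was called at an adjusted p of 0.0383 without BKO replicate 3 at 5 months, of 0.0438 without MKO replicate 1 at 5 months and of 0.0368 without BKO replicates 1 and 3 at 5 months. These libraries count the 3′ ends of transcripts, and the labels do not place the deleted exons, so the level of either gene does not check its label. Many genes described next differed between the genotypes far more than the targeted genes did.

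Across all genes, 1950 of 12966 were called (15%), 931 higher in BKO (7.18%) and 1019 lower (7.86%). The counts of gene lists below are to be read beside these shares. Of the called genes, 1557 had 1 sign at all 4 stages. The large differences were mostly in 1 direction: of 140 called genes with at least 2-fold difference (1.08% of all genes), 105 were lower in BKO and 35 were higher. In 45 genes (0.347%) all 12 libraries of a genotype lay above all 12 of the other, 30 with MKO above (0.231%) and 15 with BKO above (0.116%). Just inside the threshold stood A2ml1 (0.64, adjusted p = 0.0499) and just outside it Epm2aip1 (-0.29, adjusted p = 0.0501).

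The WT mean lay nearer to MKO than to BKO for 78.5% of the genes higher in BKO and 77.4% of those lower in BKO. Among the called genes with at least 2-fold difference these shares were 85.7% and 96.2%. The median of the 105 large falls was -1.31 for BKO minus WT and 0.11 for MKO minus WT. Both of these differences use the same WT libraries, so they are given side by side only.

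Pericentral enzymes and carriers made up most of the largest falls in BKO. Of 28 measured genes of this list, 24 were lower in BKO and 0 were higher, with a median difference of -1.65 against 0.01 over all genes. The median was -1.66 for BKO minus WT and 0.10 for MKO minus WT. Their summed level ran from 22390 to 57340 normalised reads in BKO (median 35980) and from 54130 to 114200 in MKO (median 98730). The highest BKO library and the lowest MKO library overlapped in this sum.

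Cyp2e1, the ethanol-oxidising cytochrome that also activates DEN, had the largest fall of all on the deposited scale. Its lowest, median and highest library stood at 41.8, 179 and 3938 normalised reads in BKO and at 4703, 7361 and 12180 in MKO. Every MKO library lay above every BKO library, and the difference was -4.43 ± 0.37 (adjusted p = 3.69e-11). Its mean over 12 libraries was 8.80-fold higher in MKO. By that fold of means other genes fell more, among them Cyp2c40 (61.8-fold), Cyp2c37 (17.9-fold) and Slc1a2 (16.25-fold).

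Glutamine synthetase, encoded by Glul, marks the innermost ring of hepatocytes at the central vein. Glul stood at 321, 785 and 2216 normalised reads in the lowest, median and highest BKO library and at 3977, 7341 and 11470 in MKO. The groups did not overlap, and the difference was -3.01 ± 0.29 (adjusted p = 8.15e-10), a 7.58-fold higher mean in MKO. The glutamate transporter gene Slc1a2, which feeds that enzyme, ran from 8.30 to 263 in BKO and from 696 to 2077 in MKO, again apart (-4.15 ± 0.34). Oat, the ornithine aminotransferase that makes glutamate, differed by -3.09 ± 0.28 with overlapping libraries.

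Lect2, which encodes a secreted leukocyte chemotaxin, stood at 11.8, 70.9 and 1229 normalised reads in BKO and at 1369, 2468 and 3044 in MKO. The difference for Lect2 was -3.68 ± 0.26 (adjusted p = 1.86e-12), with the groups apart. Cyp2c37, a fatty acid cytochrome, differed by -3.90 ± 0.26, and its 12 BKO libraries (2.10 to 224 reads) all lay below the 12 MKO libraries (413 to 1200). Cyp2c genes are near-identical copies, so reads may be shared among them.

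Further falls were seen in Rgn, encoding regucalcin (-2.95 ± 0.27), in Gulo, the last enzyme of vitamin C synthesis (-2.82 ± 0.23), in Lhpp, a phosphatase gene (-2.94 ± 0.24), in Cyp1a2, which oxidises caffeine (-2.60 ± 0.25), and in Gstm2, a glutathione transferase gene (-2.21 ± 0.18). Of the 28 listed genes, Gstm3, Cyp7a1, Cyp8b1 and Akr1d1 were not called, at -0.38, -0.76, -0.15 and 0.09.

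The feedback genes of the WNT pathway itself followed the same direction. Of 14 measured, 9 were lower in BKO and 1 was higher, with a median of -0.53. Tbx3, a transcription factor gene that responds to β-catenin, stood at 0.908, 6.61 and 95.0 normalised reads in the lowest, median and highest BKO library and at 116, 221 and 456 in MKO. Its libraries did not overlap and the difference was -2.53 ± 0.23 (adjusted p = 3.39e-10).

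Lgr5, the R-spondin receptor gene, was near 0 in BKO at 1 and 3 months, with 0 to 1.40 normalised reads in those 6 libraries. The 12 MKO libraries held 33.3 to 73.2, all above the 12 BKO libraries, whose highest was 30.0. The difference for Lgr5 was -1.68 ± 0.17 on the compressed scale, while its mean was 6.50-fold higher in MKO. Notum, whose product removes the lipid from WNT proteins, had a median of 7.17 in BKO and 43.0 in MKO, without overlap (-1.21 ± 0.12). Rnf43, encoding a ubiquitin ligase that removes WNT receptors, differed by -0.94 ± 0.13. Axin2, the scaffold gene often used as the readout of the pathway, had few reads, with a median of 0.913 in BKO and 6.24 in MKO (-0.51 ± 0.10, adjusted p = 2.17e-04). Ccnd1, the cyclin D1 gene, was the listed gene that was higher in BKO (0.57 ± 0.19, adjusted p = 0.0366). Without BKO replicates 1 and 3 at 5 months it was 0.23 (adjusted p = 0.435), and it lost the call without any 1 of 11 of the 24 libraries.

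**Figure D1:**
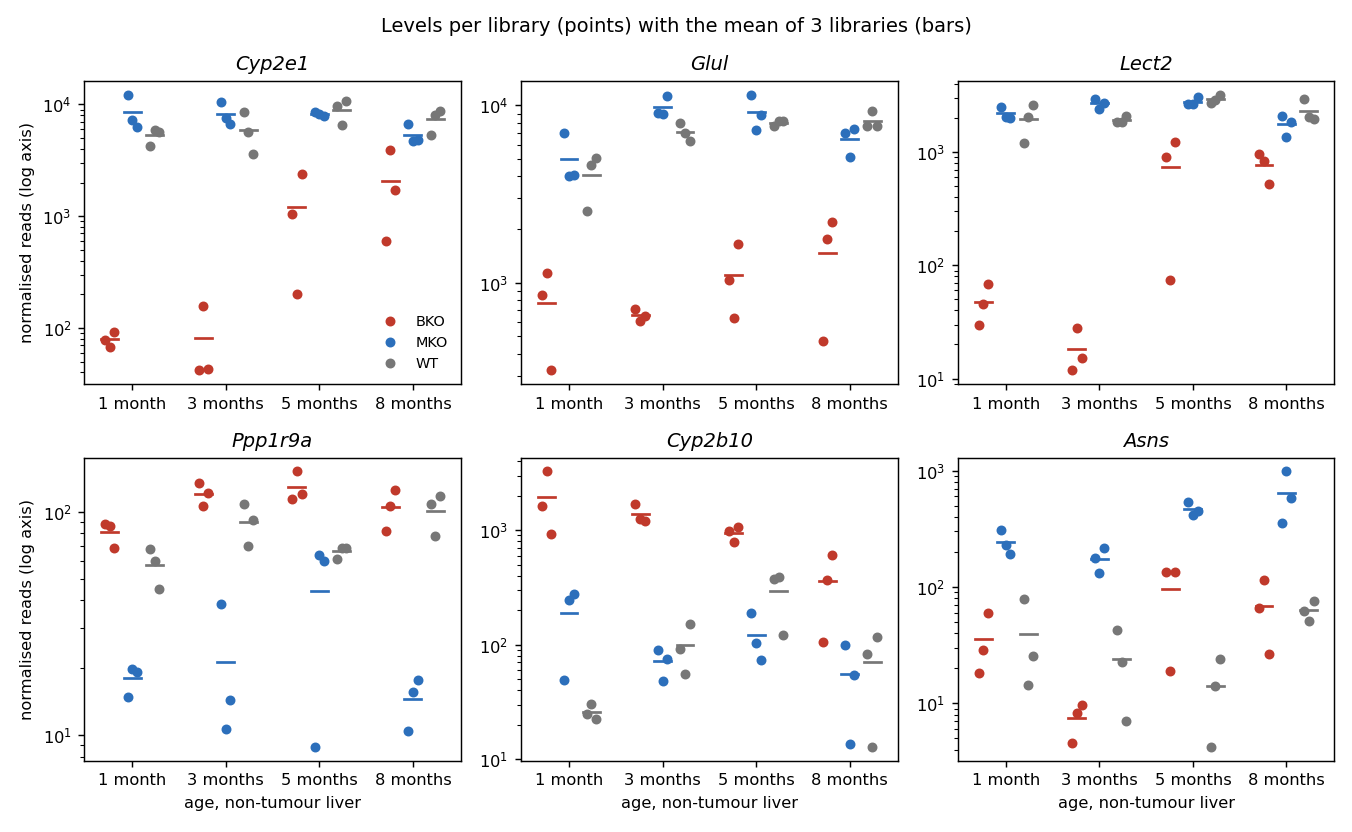
Normalised reads (log axis) of 6 genes in each BKO, MKO and WT library by age of the non-tumour liver. Points are libraries and bars the mean of 3. Cyp2e1, Glul and Lect2 lie lower in all BKO libraries than in all MKO libraries, Ppp1r9a lies higher, and Asns is high in MKO.

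The plot of levels by stage also shows how uneven the BKO livers were. At 1 and 3 months the 6 BKO libraries held 41.8 to 158 normalised reads of Cyp2e1. At 5 months replicates 1 and 3 held 1056 and 2362 against 200 in replicate 2, and at 8 months the 3 libraries held 598 to 3938. Lect2 showed the same split at 5 months, with 908.5 and 1229 against 74.1. Alb, encoding albumin, was lower in the same pair of libraries, at 397800 and 391100 against 705600 in replicate 2. Without this pair, the pericentral list again had 24 lower members, and Cyp2e1 differed by -4.90 in place of -4.43.

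Promoters of the tested genes were read for the core of the TCF/LEF element, CTTTGAT, in the 250 bases before the start on both strands. The core was found in 2.84% of the promoters of all genes tested (289 of 10181 with a RefSeq promoter). It was in 4.98% of the promoters of the genes lower in BKO and in 8.97% of those at least 2-fold lower, which is 7 of 78. Lect2 and Slc1a2, shown here because they had the largest falls among those 7, hold 1 match each, in capitals, on the minus strand relative to the gene. The sequences are RefSeq's, GRCm38.p6, 5′ to 3′ along the gene, and were chosen after the values were seen. The Lect2 stretch is chr13:56548539-56548788 (minus strand), with the match starting 32 bases before the start, and that of Slc1a2 is chr2:102706188-102706437 (plus strand), with the match 207 bases before it.
Lect2: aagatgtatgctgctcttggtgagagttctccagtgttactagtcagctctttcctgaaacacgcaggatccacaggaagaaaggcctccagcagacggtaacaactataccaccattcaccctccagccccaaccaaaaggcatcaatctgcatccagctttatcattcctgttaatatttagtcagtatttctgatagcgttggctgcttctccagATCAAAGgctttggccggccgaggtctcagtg
Slc1a2: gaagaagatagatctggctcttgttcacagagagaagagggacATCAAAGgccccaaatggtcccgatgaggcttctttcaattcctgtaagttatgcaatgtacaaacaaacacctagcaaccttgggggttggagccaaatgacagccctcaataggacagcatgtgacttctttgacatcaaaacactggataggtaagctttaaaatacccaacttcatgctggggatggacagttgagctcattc
A match is a description of letters and not a bound site.

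Periportal genes went the other way. Of 20 measured, 11 were higher in BKO and 0 were lower, with a median of 0.50. The count was 11 without the 3 set-apart MKO libraries and 11 without the 2 set-apart BKO libraries. Hsd17b13, encoding a lipid droplet dehydrogenase, stood at 1306, 1919 and 2283 normalised reads in the lowest, median and highest BKO library and at 488, 646 and 1429 in MKO. The ranges overlapped narrowly, and the difference was 1.34 ± 0.12 (adjusted p = 6.13e-11). Aldh1b1, a mitochondrial aldehyde dehydrogenase gene, differed by 1.29 ± 0.17, with medians of 452 and 140. Cdh1 encodes E-cadherin, the membrane partner of β-catenin, and is itself periportal. It had a median of 95.1 in BKO and 31.4 in MKO (0.98 ± 0.12, adjusted p = 1.6e-07), a 2.59-fold higher mean.

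Other genes of the adherens junction and of the complex that degrades β-catenin were mixed, 4 higher and 3 lower of 20. Ctnnbip1 encodes an inhibitor that keeps β-catenin off TCF factors. It ran from 116 to 221 normalised reads in BKO and from 60.6 to 112 in MKO, without overlap (0.84 ± 0.11, adjusted p = 4.73e-07). Tcf7l1, a mainly repressing TCF factor gene, was higher in BKO (0.69 ± 0.11), and Bcl9l, a co-activator gene of β-catenin, was lower (-0.53 ± 0.11).

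The urea cycle, a periportal pathway, showed little: Arg1 was higher (0.39 ± 0.11) and Glud1 lower (-0.34 ± 0.07) among 9 genes, and the remaining 7 were not called. Secreted products of hepatocytes were partly higher as well. Of 24 hepatocyte markers, 9 were higher in BKO and 1 was lower. Alb had 391100, 675700 and 771400 normalised reads in the lowest, median and highest BKO library and 192000, 245200 and 481400 in MKO (1.25 ± 0.14, adjusted p = 3.52e-08). This gap had parts on both sides of the WT, since Alb was 0.44 higher in BKO than in WT and fell by 0.81 in MKO (adjusted p = 0.0271 and 0.00112). Trf, encoding transferrin (0.74 ± 0.13), and Apoa1, the main protein of HDL (0.63 ± 0.11), were also higher.

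Fewer genes were at least 2-fold higher in BKO than lower, 35 against 105, and Hsd17b13, Aldh1b1 and the periportal serpin gene Serpina1e (1.16 ± 0.24, named after its value was seen) were among the 35. Cyp2b10, a cytochrome known as the classic target of the nuclear receptor CAR, had the largest difference. It stood at 105, 1018 and 3256 normalised reads in the lowest, median and highest BKO library and at 13.7, 82.8 and 278 in MKO. BKO libraries of 1, 3 and 5 months all lay above all MKO libraries, and the 8-month ones overlapped with them. The difference was 3.0 ± 0.29 (adjusted p = 1.15e-09), a 10.5-fold higher mean, with BKO 3.08 above WT and MKO 0.08 above it. Nr1i3, which encodes CAR itself, was lower in BKO (-1.06 ± 0.22). Among 23 receptors and targets of CAR and PXR, 2 were higher and 6 lower, so Cyp2b10 did not stand for the list.

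Cib3, a calcium-binding protein gene, was higher in BKO by 1.98 ± 0.25, with medians of 816 and 145, and Gpc1, a glypican gene, was higher by 1.39 ± 0.13 with medians of 77.2 and 12.9. Tff3, the intestinal trefoil factor gene, differed by 1.92 ± 0.41, with medians of 1702 and 344 and a difference of 0.24 at 8 months. It was high in BKO (3.04 above WT) and also 1.12 above WT in MKO, where it was not called (adjusted p = 0.135).

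The metallothioneins, small zinc-binding proteins, were higher in BKO and very variable. Mt1 stood at 1379, 4317 and 12880 normalised reads in BKO and at 198, 678 and 25610 in MKO (1.85 ± 0.39, adjusted p = 9.67e-04). The highest MKO value came from replicate 2 at 1 month, and without the 3 set-apart MKO libraries Mt1 differed by 2.55. Mt2 had medians of 528 and 71.6 (1.57 ± 0.47, adjusted p = 0.0181). Without stage 3 or stage 5 months the adjusted p of Mt2 was 0.0796 or 0.1075. Slc39a4, a zinc importer gene, was higher too (1.09 ± 0.26), and Slc39a5 was lower (-0.74 ± 0.15). In all, 3 of 10 listed genes of zinc handling were higher and 1 was lower. The promoter of Mt2 is shown with each match to TGCNCNC, a loose search pattern for the metal response element core, in capitals on either strand. It holds 5 matches in chr8:94172368-94172617 (plus strand, RefSeq GRCm38.p6). The pattern is common, in 56.6% of all promoters, but 5 or more matches were in 0.580% of them. Such matches describe letters and are not shown to be working elements or bound sites.
Mt2: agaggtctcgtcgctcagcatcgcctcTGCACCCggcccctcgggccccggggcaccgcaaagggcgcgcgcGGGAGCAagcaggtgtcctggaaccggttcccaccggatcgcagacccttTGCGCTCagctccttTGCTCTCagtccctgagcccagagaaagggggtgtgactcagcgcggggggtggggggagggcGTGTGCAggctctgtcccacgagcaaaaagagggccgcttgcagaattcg

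**Figure D2:**
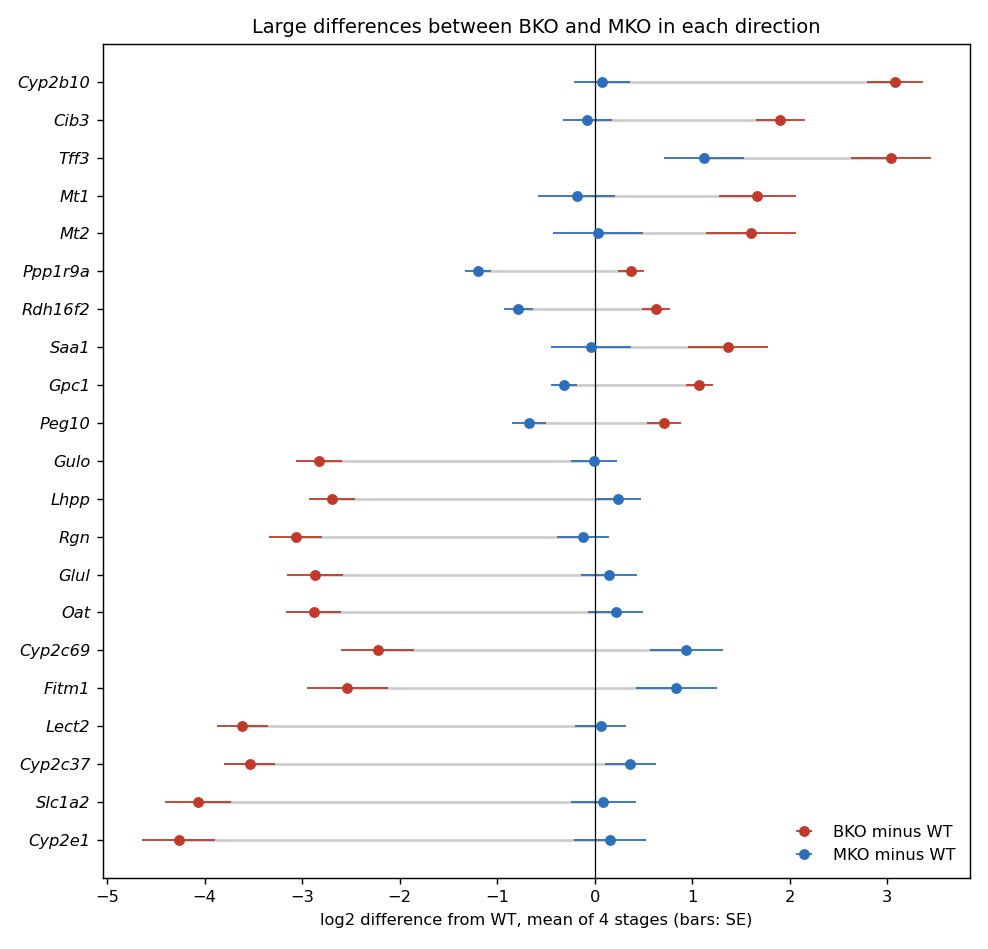
Log2 difference of BKO from WT and of MKO from WT (mean of 4 stages, bars SE) for the genes named in the text among those most above and most below MKO in BKO. For Cyp2e1, Slc1a2 and Lect2 the MKO point lies near 0 and the BKO point far below it, and Ppp1r9a is displaced mainly in MKO.

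A smaller set of differences came from the MKO side. Asns, encoding asparagine synthetase, had 4.54, 27.7 and 136 normalised reads in the lowest, median and highest BKO library, 131, 334 and 984 in MKO and 4.21, 24.9 and 79.4 in WT. The BKO and MKO ranges overlapped only at 131 to 136 reads, and all WT libraries lay below all MKO libraries. BKO minus MKO was -2.52 ± 0.32 (adjusted p = 2.86e-07), MKO was 2.74 above WT (adjusted p = 1.5e-06) and BKO 0.22 above it (adjusted p = 0.681). Asns is the usual example of a gene driven by ATF4, the transcription factor of the amino acid response. Among 30 measured genes of that response, 1 was higher and 2 were lower, with a median of 0.01. Atf4, Trib3, Chac1 and Psat1 stood at -0.12, -0.13, -0.42 and 0.28, none of them called. So Asns differed while most of the list was not called.

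The start-proximal promoter of Asns is shown because Asns had the largest difference of that list. It holds 1 match, in capitals, to TGATGNAA, the core that ATF4 and C/EBP factors share, starting 23 bases before the start. The core was in 2.64% of all promoters. The stretch is chr6:7693210-7693459 (minus strand, RefSeq GRCm38.p6).
Asns: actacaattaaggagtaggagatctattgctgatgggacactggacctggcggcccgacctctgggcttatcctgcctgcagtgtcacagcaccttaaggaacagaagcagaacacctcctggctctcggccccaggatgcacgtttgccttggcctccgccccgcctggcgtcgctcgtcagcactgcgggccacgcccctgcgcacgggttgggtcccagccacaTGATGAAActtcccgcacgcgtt

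Other genes were low in MKO. Ppp1r9a, encoding the actin-binding protein neurabin, ran from 68.5 to 151 normalised reads in BKO, from 45.2 to 117 in WT and from 8.83 to 64.3 in MKO. No MKO library reached a BKO library (1.57 ± 0.13, adjusted p = 4.47e-11), and MKO fell by 1.19 from WT. MKO replicates 2 and 3 at 5 months, at 64.3 and 59.9, lay above the other 10 MKO libraries, which held 8.83 to 38.5. Mios, a subunit gene of the GATOR2 complex that passes amino acid signals to mTORC1, had medians of 50.8 in BKO, 51.2 in WT and 14.98 in MKO (1.0 ± 0.08, adjusted p = 7.11e-12). Peg10, an imprinted gene, had medians of 34.2 and 2.58 (1.38 ± 0.17). It lay 0.71 above WT in BKO and fell by 0.67 from WT in MKO. These 3 genes and Asns lie on chromosome 6, on the same side of Met.

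Around the receptor itself, the list of MET and other receptor kinases was split, with 3 higher and 3 lower of 20. Hgfac encodes the serum protease that activates pro-HGF. Its median was 4209 in BKO, 2102 in MKO and 3140 in WT (0.83 ± 0.13, adjusted p = 1.6e-05). Mst1, encoding the HGF-like ligand of the receptor RON, was higher (0.73 ± 0.08), and Spint2, encoding an inhibitor of HGF activation, was lower (-0.51 ± 0.10). Ntrk2, a neurotrophin receptor gene, had medians of 8.67 in BKO, 90.6 in MKO and 42.5 in WT (-1.63 ± 0.28, adjusted p = 5.04e-05). The 2 BKO libraries that stood apart at 5 months held 148 and 182 reads of it, inside the MKO range, and without them the difference was -2.16. Hgf, Egfr, Erbb2 and Gab1 were not called, at 0.10, -0.14, 0.10 and -0.14.

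Some called genes had the knockouts on opposite sides of the WT. Rdh16f2, a retinol dehydrogenase gene, was 0.63 above WT in BKO and fell by 0.78 in MKO, for a difference of 1.41 ± 0.15. Apom, the lipocalin of HDL, stood at 0.47 in BKO and -0.50 in MKO against WT, and Ccl9, a chemokine gene, at 0.80 and -0.44. In the opposite sense, Gstt3, a glutathione transferase gene, was -0.93 in BKO and 0.66 in MKO, and Fitm1, which encodes a lipid droplet protein, -2.54 and 0.83. The MKO share passed the test against WT for Rdh16f2, Apom and Gstt3 (adjusted p = 0.00256, 0.0328 and 0.048) and not for Ccl9 or Fitm1 (0.087 and 0.292).

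Bile acid and fatty acid genes were lower in BKO where they differed. Of 24 genes of bile acid synthesis and transport, 8 were lower and 0 higher. This list overlaps with the pericentral one, which also holds Slco1b2 and Cyp7a1. Slco1b2, encoding a carrier that takes bile acids and drugs from the blood, stood at 430, 953 and 1375 normalised reads in BKO and at 926, 3349 and 4780 in MKO (-1.67 ± 0.26, adjusted p = 1.07e-05). Hsd3b7 and Akr1c6, enzymes of bile acid and steroid synthesis, differed by -1.01 ± 0.12 and -0.92 ± 0.13. Abcb4, the phospholipid exporter of the canaliculus, differed by -0.64 ± 0.10. Cyp7a1, the rate-limiting enzyme, had medians of 489 and 986 but was not called (-0.76 ± 0.32, adjusted p = 0.103). That depended on the fit: its limma adjusted p was 0.00216 with the 24 compared libraries alone. With replicate numbers as a block it was 0.00348.

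Of 28 genes of fatty acid oxidation, 9 were lower and 0 higher, with a median of -0.18. Vnn1, encoding pantetheinase, was the clearest, with medians of 17.1 in BKO and 69.2 in MKO (-1.35 ± 0.16, adjusted p = 1.38e-07). Cyp4a10, a fatty acid hydroxylase gene, differed by -1.54 ± 0.39, and Eci2, an enoyl-CoA isomerase gene, by -0.66 ± 0.13. Ppara and Cpt1a were at -0.09 and -0.11 and not called. In lipogenesis and lipid uptake 2 genes were higher and 4 lower of 29, against 7.18% and 7.86% of all genes. Acly, which makes cytosolic acetyl-CoA, was higher (0.73 ± 0.19), while Pparg (-0.77 ± 0.13) and Mlxipl, encoding ChREBP (-0.36 ± 0.10), were lower. Without the 2 set-apart BKO libraries Mlxipl was at -0.25 (adjusted p = 0.132). Of 25 NRF2 targets, 1 was higher and 2 lower, again near the shares of all genes. Among those, Gsta3, a glutathione transferase gene, ran from 883 to 1928 in BKO and from 2221 to 3260 in MKO, without overlap (-0.83 ± 0.10).

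Some genes that differ between the sexes through growth hormone were lower in BKO in both classes, and the counts changed without the set-apart libraries. Of 22 male-biased genes 4 were lower and 2 higher, and of 16 female-biased genes 8 were lower and 1 higher. Without the 3 set-apart MKO libraries the lower counts were 8 and 3, and without the 2 set-apart BKO libraries 3 and 7. Those 3 MKO libraries held 48220 to 78550 normalised reads of the male-biased genes together and 10640 to 12780 of the female-biased ones. The other 9 MKO libraries held 148400 to 332100 and 1270 to 4080, and the BKO libraries 56350 to 222700 and 787 to 5928. In the male-biased sum 4 BKO libraries were as low, at 85430 in replicate 3 at 1 month, 69770 and 56350 in replicates 1 and 3 at 5 months and 73420 in replicate 1 at 8 months, so that leaving out the MKO libraries alone took low values from 1 genotype. What set these libraries apart was not tested.

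Cyp2c69, a female-biased cytochrome, ran from 0 to 9.59 normalised reads in BKO and from 15.7 to 2056 in MKO, without overlap (-3.16 ± 0.38, adjusted p = 8.28e-08). The 3 set-apart libraries held 2056, 1960 and 1394 of it, and without them the difference was -2.53 (adjusted p = 4.71e-07). Mup17, a male-biased urinary protein gene, had medians of 593 and 9693 (-2.63 ± 0.65, adjusted p = 0.00462), and -3.65 without those libraries. The Mup genes are near-identical copies, so reads of one may be counted for another. Elovl3, a fatty acid elongase gene, differed by -1.97 ± 0.39. Prlr, the prolactin receptor gene, differed by -1.03 ± 0.18, and C8a, a complement gene, by 0.68 ± 0.09.

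Acute phase genes, which hepatocytes raise in response to cytokines, are another secreted group. Of 29 measured, 12 were higher in BKO and 2 lower, with a median of 0.34. Saa1 stood at 488, 2291 and 9950 normalised reads in the lowest, median and highest BKO library and at 339, 766 and 1807 in MKO (1.41 ± 0.41, adjusted p = 0.0162). Without BKO replicates 1 and 3 at 5 months its adjusted p was 0.0709, and the list count was 9. Hpx, encoding the haem carrier hemopexin, was steadier, with medians of 34370 and 15920 (1.06 ± 0.12, adjusted p = 1.92e-08). Itih3 and Itih4, which encode hyaluronan-binding proteins, were also higher (0.71 ± 0.11 and 0.61 ± 0.11). Saa1 and Saa2 are close copies, as are Mt1 and Mt2, and may share reads.

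Genes of growth arrest and of division were counted apart. Of 23 p53 targets 4 were higher and 0 lower. Cdkn1a, the cell cycle inhibitor p21, had medians of 620 in BKO and 158 in MKO (1.23 ± 0.17, adjusted p = 1.06e-06), and Btg2, an antiproliferative gene, was higher too (0.80 ± 0.15). Without the 2 set-apart BKO libraries 2 of the list were higher. Of 33 proliferation genes 1 was higher, Mcm5 of the replication helicase (0.63 ± 0.21, adjusted p = 0.0332), and without those libraries it was 0.32 (adjusted p = 0.316). Of 23 ERK and immediate early targets 3 were higher and 0 lower, against 7.18% and 7.86% of all genes. The 3 were Jun (0.74 ± 0.14), Jund (0.36 ± 0.08) and Ccnd1. Egr1, Fos, Dusp6 and Spry4 were not called, at 0.56, 0.31, -0.23 and -0.18.

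The lists for other cell types give what else the tissue held. Of 29 stellate cell and matrix genes 14 were higher in BKO and 0 lower, with a median of 0.33. Their summed level was 8840 to 15690 normalised reads in BKO (median 11980) and 6977 to 14580 in MKO (median 8537). Bgn, the matrix proteoglycan biglycan, ran from 1098 to 1732 in BKO and from 617 to 1091 in MKO, without overlap (0.66 ± 0.09, adjusted p = 2.2e-06). Mmp2, a collagenase gene, differed by 0.84 ± 0.14 and Col3a1 by 0.46 ± 0.13, while Col1a1 was not called (0.69 ± 0.27, adjusted p = 0.082). Without the 2 set-apart BKO libraries the count was 8 and Col3a1 was at 0.38 (adjusted p = 0.0854), and without the 3 set-apart MKO libraries the count was 16.

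Of 17 cholangiocyte and progenitor genes 6 were higher and 0 lower. Sox9, the transcription factor of bile duct cells, had medians of 272 and 82.4 (1.07 ± 0.16, adjusted p = 4.05e-06), and the duct keratin genes Krt7 and Krt19 differed by 0.60 ± 0.14 and 0.48 ± 0.13. Of 21 sinusoidal endothelial markers 4 were higher, and 2 without the 3 set-apart MKO libraries. Rspo3, the R-spondin of the central vein, was 1 of the 4 (0.31 ± 0.10, adjusted p = 0.0239). It was at 0.30 (adjusted p = 0.0775) without those libraries, and it also missed the threshold without BKO replicate 2 or MKO replicate 1 at 5 months or MKO replicate 1 at 8 months (adjusted p up to 0.0594). Wnt2 and Wnt9b, the endothelial ligand genes, were not called, at 0.01 and 0.17.

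Of 27 macrophage markers 2 were higher, against 7.18% of all genes. They were Trem2 and Mpeg1 (0.63 ± 0.20 and 0.44 ± 0.14). The count was 0 without the 2 set-apart BKO libraries, 0 without BKO replicate 1 at 8 months and 5 without the 3 set-apart MKO libraries. The T and NK cell list (15 measured), the B and plasma cell list (18) and the erythroid list (10) had no called member, and the neutrophil list had 1 lower of 10. The summed neutrophil genes stood at 8415 normalised reads in BKO replicate 1 at 8 months against 756 and 970 in the other BKO libraries of that age, and at 5483 in MKO replicate 2 at 8 months against 632 and 501. The summed B and plasma cell genes of that BKO library were 11500 against 5683 and 4926. Without it 2 p53 targets were higher in place of 4, and 6 fatty acid oxidation genes were lower in place of 9. Summed levels of T and NK cell markers were 221 to 431 in BKO and 182 to 603 in MKO. The highest MKO sums of the stellate and of the T and NK cell lists both came from replicate 2 at 8 months. The part that cell makeup plays in the differences of hepatocyte genes was not tested.

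**Figure D3:**
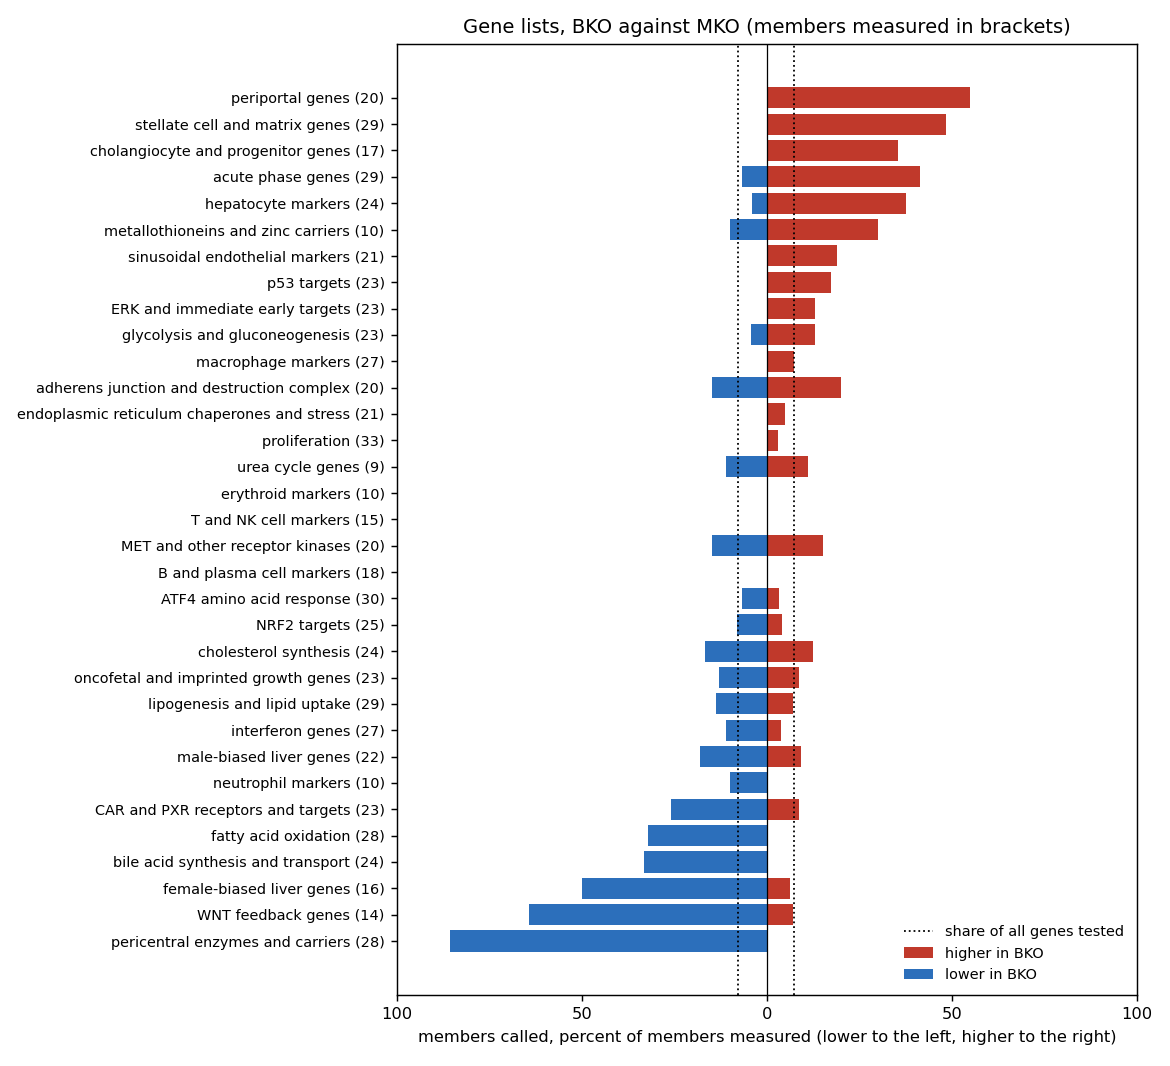
Share of the measured members of each gene list that were called higher (right) or lower (left) in BKO than in MKO, as the mean of 4 stages. Dotted lines are the shares over all genes, 7.18% higher and 7.86% lower. The pericentral, WNT feedback and female-biased lists reach furthest to the left, and the periportal and stellate lists furthest to the right.

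For most of the strongly different genes the gap between the knockouts was widest at 3 months. Counted separately, it was narrowest at 8 months for most of them. Single stages called 398 genes at 1 month (3.07%), 581 at 3 months (4.48%), 513 at 5 months (3.96%) and 92 at 8 months (0.710%). For the 140 genes with at least 2-fold difference, the median size was 1.45, 1.86, 1.29 and 0.92 at the 4 stages. The largest of the 4 was that at 3 months in 78 of the 140, and the smallest that at 8 months in 82. Counts of a single stage hung on single libraries. They were 171 to 366 at 1 month, 313 to 486 at 3 months, 168 to 474 at 5 months and 37 to 119 at 8 months when 1 library was left out. Those that moved a count by more than 1.5 times were BKO 1 and 2 and MKO 3 at 1 month, BKO 1 and 2 and MKO 2 and 3 at 3 months, BKO 1 and 3 and all 3 MKO at 5 months, and BKO 1 and 2 and MKO 3 at 8 months. Without the 3 set-apart MKO libraries 102 genes were called at 1 month, and without the 2 set-apart BKO libraries 116 at 5 months.

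A test of stage dependence called 42 genes (0.324%), of which 24 were also called in the mean of 4 stages. At an unadjusted p below 0.05 there were 1819. The count was 5 without the 3 set-apart MKO libraries and 20 without the 2 set-apart BKO libraries. It ran from 20 to 176 when 1 library was left out, lowest without BKO replicate 2 at 1 month and highest without BKO replicate 2 at 5 months. MKO replicates 1 and 3 at 1 month, 1 and 3 at 5 months and 1 at 8 months also moved it, to 71, 21, 78, 22 and 108.

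Several pericentral genes were among the 42. Lect2 differed by -4.96 and -6.05 at 1 and 3 months and by -2.52 and -1.17 at 5 and 8 months (each ± 0.52; F test adjusted p = 0.00175). Cyp2e1 went from -6.28 and -6.41 to -3.30 and -1.71 (± 0.74; adjusted p = 0.0322). Cyp2a5, a coumarin hydroxylase gene, went from -2.75 and -4.05 to -1.02 and -0.03 (± 0.45; adjusted p = 0.00308). BKO libraries of Cyp2a5 held 607 to 921 normalised reads at 8 months and 21.8 to 122 at 3 months. At 5 months BKO replicates 1 and 3 held more Lect2 and Cyp2e1 than replicate 2, as given above. Glul was not called in that test, at -2.77, -3.83, -3.10 and -2.35 (± 0.57; adjusted p = 0.689). MKO libraries of Cyp2e1 held 6618 to 10520 at 3 months and 4703 to 6621 at 8 months.

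Other genes changed sign with age. Habp4, encoding a hyaluronan- and RNA-binding protein, differed by -1.71, -1.11, -0.59 and 1.69 (± 0.30; adjusted p = 8.74e-05). Its values fell into separate ranges. BKO at 1 month held 183 to 185 normalised reads and MKO at 8 months 118 to 187, while MKO at 1, 3 and 5 months held 601 to 911. BKO at 3 months was split, with 729 in replicate 1 and 212 and 235 in the others. Cxcl14, a chemokine gene, differed by 2.65, 1.64, 2.0 and -1.51 (± 0.50; adjusted p = 0.0121), as its MKO level went from 9.60 to 43.4 reads in the first 3 stages to 249 to 497 at 8 months. Cdkn1a differed by 2.54 at 1 month and 1.54 at 5 months, against 0.43 at both 3 and 8 months (± 0.33; adjusted p = 0.0421).

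**Figure D4:**
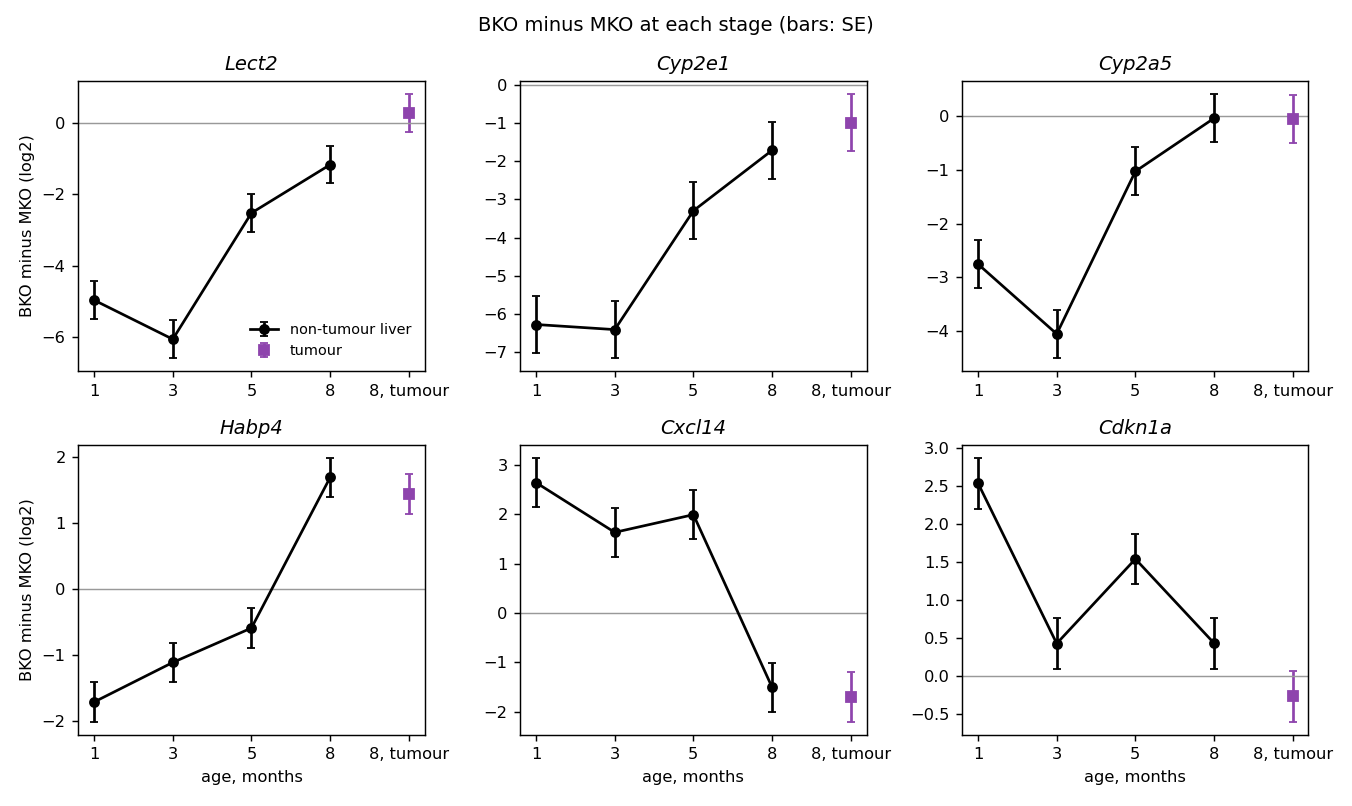
BKO minus MKO (log2, bars SE) of 6 genes at 1, 3, 5 and 8 months in non-tumour liver (circles) and in tumours (squares). Lect2, Cyp2e1 and Cyp2a5 lie nearer 0 at 5 and 8 months than at 1 and 3 months. Habp4 and Cxcl14 cross 0 between 5 and 8 months.

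In the tumours of the same genotypes, 3 libraries each, 30 genes were called (0.231%) and most of the liver differences were not. Of the 140 genes with at least 2-fold difference, 9 were called in tumours and 109 had the same sign there, with a median size of 0.40. Cyp2e1 was at 131 to 411 normalised reads in BKO tumours and at 103 to 2317 in MKO tumours (-0.98 ± 0.74, adjusted p = 0.788). Glul was likewise not called (-1.36 ± 0.57, adjusted p = 0.486). In MKO tumours Slc1a2 held 5.59, 66.8 and 433.5 reads there against 696 to 2077 in MKO non-tumour liver. Whether a difference itself changed between tumour and 8-month non-tumour liver was tested for all genes, and 2 passed (0.0154%). These were Abcg8, encoding a sterol exporter, which went from -1.59 to 0.06 (adjusted p = 0.034), and Srpx2, a secreted sushi-domain gene, from 0.67 to -0.52 (adjusted p = 0.0184). Their count was 0 without BKO replicate 1, BKO replicate 3 or MKO replicate 1 at 8 months, and 1 without MKO replicate 2 or 3.

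Several genes called in both liver and tumours lay near the targeted genes. Within 10 Mb of the start of Ctnnb1, 26 of 89 tested genes were called (29.2%), and within 15 Mb 57 of 192 (29.7%), against 14.8% of all genes outside both wider windows. Around Met the shares were 5 of 33 (15.2%) and 16 of 80 (20%). The wider window was chosen after the data were seen. Of the 30 genes called in tumours, 7 lay within 15 Mb of Ctnnb1 and 3 within 15 Mb of Met. The labels do not say what strain background lies around each deleted gene, and whether linked sequence plays a part was not tested.

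Limd1, a tumour suppressor gene that encodes a LIM domain protein, lies 2.55 Mb after the start of Ctnnb1. It ran from 133 to 377 normalised reads in BKO and from 390 to 566 in MKO, without overlap (-1.23 ± 0.09, adjusted p = 2.24e-12). In tumours it ran from 94.2 to 112 in BKO and from 573 to 910 in MKO (-2.51 ± 0.18, adjusted p = 6.37e-12). Itga9, the integrin α9 gene, 2.33 Mb before Ctnnb1, ran from 202 to 402 in BKO and from 70.6 to 185 in MKO, without overlap (1.12 ± 0.09), and it was also higher in BKO tumours (0.86, adjusted p = 0.0189). Fyco1, which encodes an autophagosome adaptor, was lower in liver (-1.11 ± 0.09) and in tumours (-1.01). For these 3 genes WT lay with MKO, at -0.08, -0.10 and 0.11 for MKO minus WT.

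On the side of Met, Ppp1r9a (12.6 Mb before it), Sgce (12.8 Mb) and Mios (9.25 Mb) were higher in BKO in liver and in tumours. Mios ran from 36.5 to 74.7 reads in BKO liver and from 7.85 to 37.6 in MKO liver, with overlap, and from 38.4 to 51.1 in BKO tumours and 8.42 to 17.8 in MKO tumours, without it (0.96, adjusted p = 0.00126). For Ppp1r9a the tumour values were 55.8 to 132 in BKO and 10.6 to 12.3 in MKO (1.74, adjusted p = 5.55e-04). Sgce, the imprinted neighbour of Peg10, had medians of 30.7 and 11.6 in liver (0.73 ± 0.14). Asns, 9.79 Mb before Met, was not called in tumours (-1.81, adjusted p = 0.329), where 1 BKO tumour held 1357 reads.

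**Figure D5:**
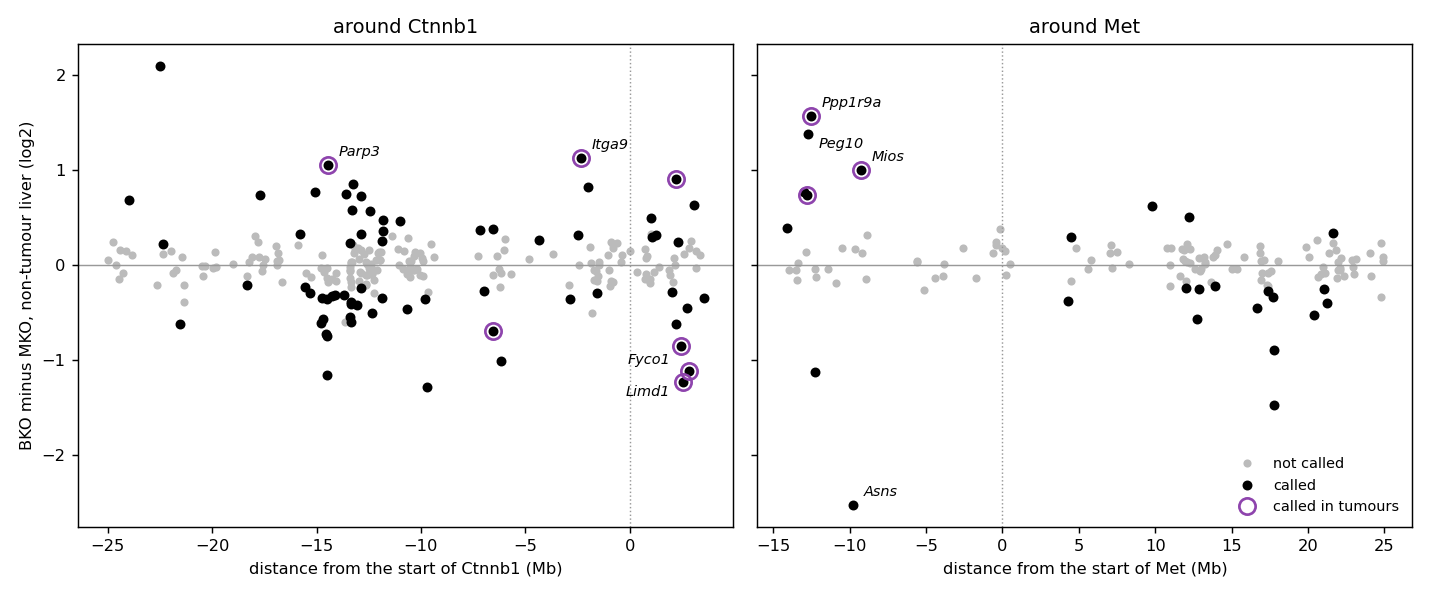
BKO minus MKO in non-tumour liver (log2) of each tested gene against its distance from the start of Ctnnb1 or Met in Mb. Black points are called genes, grey ones are not, and rings mark genes called in tumours. Limd1 and Fyco1 lie low just after Ctnnb1, Itga9 lies high before it, and Ppp1r9a, Mios and Asns lie before Met.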

How the data were processed

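RNA from whole liver was sequenced at its polyadenylated 3′ ends on a HiSeq2000 (MAPS), per the labels' protocols. Per the submitters' processing notes the tools were STAR 2.7.10a, HTSeq 2.0.2 and DESeq2 1.32.0 on GRCm38/mm10. The authors deposited 1 table of log2-scale normalised values for 12966 genes and 105 libraries, with a shared floor of 3.8289 for genes without reads. That the scale is a variance-stabilised one was inferred from the values, and on inverting it at least 99.98% of them gave whole reads within 0.05 in the compared libraries, which yielded the normalised reads printed here. Reads over the listed genes ran from 6650086 to 15553993 per library, and replicate libraries differed by at least 10.215 in chi-square per gene, so none was counted as a duplicate. No column was left out.

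The 45 libraries of sequencing group 2 were fitted together with limma 3.58.1 in R 4.3.3 (trend moderation, 15 groups), with no filter beyond the authors'. Contrasts were the mean of 4 stage differences, each stage, an F test between stages, tumours, tumour minus 8-month non-tumour liver, and each knockout minus WT. P-values were Benjamini-Hochberg adjusted over all genes. In data simulated for the mean of 4 stages over 12966 genes, changes added on the deposited scale were recovered for 95.5% of genes at 1.5-fold and 100% at 2-fold and 4-fold, with 15 calls among unchanged genes. The simulated noise was normal and independent between genes and libraries, with each gene's own spread. Libraries that stand apart in many genes were not imitated, so these shares may not hold for the real libraries.

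Genes named were Ctnnb1 and Met, the 12 largest differences each way among called genes with 1 sign at all stages, the 8 smallest p of the stage test, up to 4 called members of each of 33 lists with the smallest p (or the 2 with the highest mean), 5 genes on opposite sides of WT each way, and 4 called genes near each locus. Predicted genes were passed over, and some genes that the rule names are not reported here. Named outside that rule, after their values were seen, were genes called in tumours, those of the tumour test, Peg10's neighbour Sgce, Axin2, Ddx3y and uncalled list members given for context. The comparison and the lists were chosen with earlier results of these data known. RefSeq positions were matched for 12913 genes. Alternatives were a filter, scalings, fewer libraries, a replicate block, moderation, library weights, voom on recovered reads, and leaving out libraries or stages.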

Additional observations from a re-analysis of the deposited data

Results flagged for a closer look

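The difference between BKO and MKO varied between the 4 stages for 15 named genes by limma's F test, given here as Benjamini-Hochberg adjusted p-values over all genes. Among pericentral and WNT genes these were Lect2 (0.00175), Cyp2a5 (0.00308), Gulo (0.028), Notum (0.0319) and Cyp2e1 (0.0322), each smaller at 8 months than at 3 months. Gulo differed by -3.60, -4.43, -2.17 and -1.06 over the 4 ages and Notum by -1.87, -1.78, -0.66 and -0.52. Tnfaip8l1 (0.00308) differed by -1.20, -1.68, -0.65 and 0.07, and Abcb4 (0.0463) by -0.70, -1.39, -0.48 and 0.02.

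Habp4 (8.74e-05) and Cxcl14 (0.0121) had the opposite sign at 8 months. Il17rb, an interleukin receptor gene (0.0169), differed by -0.03, 0.78, 1.27 and -0.34. Cdkn1a (0.0421) was furthest apart at 1 month, and so was Igf2, an imprinted growth factor gene (0.0454), at -2.88, -0.15, 0.24 and -1.06.

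The urinary protein genes Mup8 (0.0121), Mup12 (0.0138) and Mup9 (0.0243) differed by 1.31, 0.80 and 0.41 at 1 month and by -0.85, -2.16 and -4.07 at 3 months. These genes share reads. Their 1-month values include 2 of the 3 set-apart MKO libraries. Without those 3 the differences over the 4 stages were -0.32, -1.50 and -2.92, and the test of stage dependence called 5 genes in place of 42.

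Between 8-month non-tumour liver and tumours the difference itself changed for Abcg8 (adjusted p = 0.034) and Srpx2 (adjusted p = 0.0184).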

How the results depend on the processing

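The count of 1950 called genes stayed within 1.5 times under all alternatives except the one without the 3-month stage, which gave 1056 (477 higher, 579 lower). It ran from 1568 (without the 2 set-apart BKO libraries) to 2055, with 741 to 1006 higher and 827 to 1049 lower, when libraries were left out, and no named gene reversed under any of 38 alternatives, while 49 of 148 called ones lost the call under at least 1. Which genes were called changed more than the count. Of the 1950, 51.6%, 62.8% and 66.9% were still called without the stage of 3, 5 or 1 months. Without the set-apart BKO or MKO libraries 72.4% and 77.7% were. The replicate numbers share only a number: deviations of same-numbered libraries correlated at -0.412 to 0.218, with 4 of 12 pairs over 0.1. A fit with the replicate block called 1734 genes, and 14 in the stage test in place of 42. That test called 19 with the 24 libraries alone, 294 with library weights, 26 with voom, 5 without the 3 set-apart MKO libraries, 20 without the 2 set-apart BKO libraries, and 20 to 176 without 1 library. Library weights gave 1012, 1386, 871 and 48 calls at 1, 3, 5 and 8 months, voom 293 at 5 months, and the 24 libraries alone 172 at 8 months. Without 1 library the stage counts ran from 171 to 366, 313 to 486, 168 to 474 and 37 to 119, and without the set-apart libraries 102 were called at 1 month and 116 at 5 months. With genes of a mean of at least 6 only, 14 were called in tumours and 1 between tumour and non-tumour liver, a count that ran from 0 to 3 without libraries. The causes were not tested, other than that fewer genes or libraries entered some of these fits. With n = 3 per genotype and stage, single-stage counts are imprecise, and genes near the floor have compressed differences.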

Other observations

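A few imprinted and fetal growth genes were called between the knockouts, in a library-dependent way. Of 23 measured, 2 were higher and 3 lower in BKO, against 7.18% and 7.86% of all genes. H19, an imprinted non-coding RNA gene, stood at 3.20, 118 and 796 normalised reads in the lowest, median and highest BKO library and at 40.2, 195 and 5439 in MKO (-1.69 ± 0.49, adjusted p = 0.0159 in limma). Without the 3 set-apart MKO libraries H19 was -1.05 (adjusted p = 0.177) and Igf2 -0.43 (adjusted p = 0.0962). Meg3, another imprinted RNA gene, differed by -1.74 ± 0.40. Afp, encoding fetal albumin, was not called (-0.33), with medians of 1.85 and 3.71.

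Sterol synthesis was split, with 3 higher and 4 lower of 24 genes. The late enzymes Dhcr7 and Sc5d were higher (0.45 ± 0.14 and 0.37 ± 0.12), while Hsd17b7, an earlier enzyme, was lower (-0.77 ± 0.12). Without the 2 set-apart BKO libraries 1 was higher and 1 lower, and Dhcr7 and Sc5d lost the call without any 1 of 10 and of 7 of the 24 libraries (adjusted p up to 0.0753 and 0.0706). In glycolysis 3 genes were higher and 1 lower of 23: Tpi1, Hk1 and Pfkp were higher (0.30, 0.34 and 0.60) and Pfkfb3, which makes the activator of phosphofructokinase, was lower (-1.06 ± 0.19). Without the 2 set-apart BKO libraries Pfkp was at 0.41 (adjusted p = 0.121).

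Among 27 interferon genes 1 was higher and 3 were lower, against 7.18% and 7.86% of all genes. The antigen-presentation genes H2-K1 and Psmb8 were among the 3, at -0.38 and -0.43. In tumours, immunoglobulin genes were higher in BKO, with Igkc at 2.54 (adjusted p = 0.0333) and Iglc1 at 2.65 (adjusted p = 0.00276), while none of 18 B and plasma cell markers was called in non-tumour liver. Neither Igkc nor Iglc1 passed the test of a changed difference between tumour and 8-month non-tumour liver, so a tumour-specific difference was not shown.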
